A study of Homo sapiens with 32 samples.

Results

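The comparison set MM.1S cells pulsed with carfilzomib against MM.1S cells pulsed with the vehicle DMSO. MM.1S is an established human multiple myeloma line, that is, a line of malignant plasma cells. Its members are 4 of the 8 libraries of the study, or 16 of its 32 lane files: the DMSO libraries 1, 2 and 3 (12 lanes) and the single carfilzomib library, written Cfz (4 lanes). They were chosen by their treatment label. All genes of the deposited table entered, and 15827 of its 24249 gene IDs were abundant enough to be tested. In the DMSO libraries both the 1 h pulse and the following 12 h in fresh medium were with DMSO. The Cfz library had a 1 h pulse of carfilzomib, at a dose that no source used here names, and the same 12 h of culture with DMSO. A further 3 libraries were labelled ATRA (10 µM all-trans retinoic acid during the 12 h) and add to the estimate of spread. With 1 library labelled ATRA+Cfz (the carfilzomib pulse, then ATRA) they give a second carfilzomib comparison. Its fold changes share no library with the main one, but its calls use the same estimate of spread. The labels do not say whether libraries of a group were separate cultures, so p-values measure the spread between these libraries, which may be technical, and the Cfz library has no replicate of its own.

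Carfilzomib binds the catalytic beta subunit PSMB5 of the 20S proteasome irreversibly and blocks its chymotrypsin-like site. The proteasome degrades proteins tagged with ubiquitin. Its 20S core is a stack of alpha and beta rings, and its 19S cap binds ubiquitin, unfolds the substrate with a ring of ATPases and feeds it into the core. Cells with blocked proteasomes are known to raise proteasome genes through NFE2L1 (NRF1), a factor that is pulled out of the endoplasmic reticulum by the ATPase VCP, stripped of its sugars by NGLY1 and cut by DDI2. Other known responses run through HSF1, which drives chaperone genes, and NFE2L2 (NRF2), which drives antioxidant genes. Plasma cells make and secrete large amounts of antibody chains, and proteasome inhibitors are standard drugs in myeloma.

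Values are FPM, fragments scaled to a total of 1000000 per lane, averaged over the 4 lanes of a library. Library depth was 14945279 to 17155331 reads for DMSO and 15245884 reads for Cfz, so that a count of 3 reads corresponds to 0.175 to 0.201 FPM in these 4 libraries. DMSO 3 stood apart from its group: the chi-square per degree of freedom over genes was 1.739 between DMSO 1 and DMSO 2 but 9.366 and 9.898 between DMSO 3 and those libraries. It was 23.067 to 24.431 between Cfz and the DMSO libraries. The share of reads from mitochondrial genes was 4.117% and 4.094% in DMSO 1 and 2, 5.853% in DMSO 3 and 5.433% in Cfz (95% Wilson interval 5.421% to 5.444%, counting error only). Counts below are therefore also given without DMSO 3 where they moved by over 1.5 times. The plasma cell genes SDC1 (syndecan-1, the surface antigen CD138), TNFRSF17 (the receptor BCMA) and XBP1 were at 393 FPM or more, 194 FPM or more and 888 FPM or more in the DMSO libraries. Of the listed markers of other cell types, CD8A, CD14, COL1A1, COL1A2, DCN, CDH1, KRT8 and KRT18 each stayed at or below 0.35 FPM in all 4 libraries. Others did not, among them the stromal COL6A3 (up to 23.5 FPM), the B cell marker CIITA (up to 47.1 FPM) and the epithelial EPCAM (up to 3.34 FPM).

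With limma and Benjamini-Hochberg adjustment at a threshold of 0.05, 1257 genes were called higher in Cfz (7.94% of those tested) and 2691 lower (17%). The changes upward were larger: 162 genes were called and at least 2-fold higher (1.02%) and 65 called and at least 2-fold lower (0.411%). Of the calls, 31.8% were higher with FPM as deposited, 46.3% with median-ratio scaling (1601 higher, 1856 lower), 42.2% with edgeR and 53.1% with DESeq2 on recovered reads (1069 higher, 944 lower). Small falls therefore depend on the scaling, which moved the median log2 change of all genes from -0.08 to -0.03. Shares of gene lists below are to be read against 7.94% and 17%. Cfz was above every DMSO library for 4002 of the 15827 genes tested and below every DMSO library for 7344. Statements below that Cfz lay outside the DMSO values are to be read against these counts.

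The letters of 2 known promoter elements are shown first, in proteasome, antioxidant and chaperone genes that were all called higher in Cfz. The antioxidant response element is bound by NFE2L1 and NFE2L2 with small MAF partners and was searched as TGACNNNGC. The heat shock element is bound by HSF1 and was searched as the blocks GAA, TTC and GAA, or TTC, GAA and TTC, each 2 bases apart, forms that can overlap each other. Both strands of RefSeq promoters (GRCh38.p14, 250 bases before to 50 after a start) were read. No source used here names the authors' genome build, and these coordinates are RefSeq's. Windows of up to 29 bases are given 5′ to 3′ on the gene's strand, with the letters that match in capitals. In PSMA4, PSMB3, PSMC5, PSMD3, PSMD12 and ADRM1, proteasome genes that were all called higher, the match to the antioxidant response element lies before the start.
PSMA4 (chr15:78540650-78540678, + strand): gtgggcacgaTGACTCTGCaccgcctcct
PSMB3 (chr17:38752627-38752655, + strand): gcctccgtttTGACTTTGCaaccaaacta
PSMC5 (chr17:63827654-63827682, + strand): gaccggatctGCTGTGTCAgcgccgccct
PSMD3 (chr17:39980760-39980788, + strand): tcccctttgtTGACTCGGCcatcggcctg
PSMD12 (chr17:67366724-67366752, - strand): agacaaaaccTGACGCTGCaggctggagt
ADRM1 (chr20:62302749-62302777, + strand): cgctcccctaTGACACAGCaacaataggg
GCLM, an enzyme of glutathione synthesis, and TXNRD1, thioredoxin reductase, are shown as antioxidant genes.
GCLM (chr1:93909446-93909474, - strand): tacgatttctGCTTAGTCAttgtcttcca
TXNRD1 (chr12:104286920-104286948, + strand): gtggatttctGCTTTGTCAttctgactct
HSPA6, HSPA8, HSP90AA1 and HSP90AB1, chaperone genes of the HSP70 and HSP90 families, are shown with their match to the heat shock element.
HSPA6 (chr1:161524458-161524486, + strand): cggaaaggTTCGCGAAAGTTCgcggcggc
HSPA8 (chr11:123062171-123062199, - strand): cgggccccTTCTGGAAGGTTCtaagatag
HSP90AA1 (chr14:102087112-102087140, - strand): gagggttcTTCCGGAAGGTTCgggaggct
HSP90AB1 (chr6:44247823-44247851, + strand): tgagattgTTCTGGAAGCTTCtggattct

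Of 33 proteasome subunit genes, 28 had a promoter in the table (PSMA7, PSMB1, PSMB6, PSMB7 and PSMD4 did not), and 9 of the 28 held the antioxidant response element in at least 1 promoter. By promoter this was 10 of 37 (27%), beside 4687 of all 35116 promoters (13.3%) and 2222 of 15407 promoters of genes tested (14.4%). Other lists reached 27% too, with 4 of 9 promoters of proteasome assembly factors (44.4%) and 10 of 36 of the ATF4 list (27.8%). Genes not called held this element as well, among them EPHX1, SEL1L and TOLLIP. The heat shock element stood in 172 of all promoters (0.49%). It stood in 3 of 12 genes of the HSP90 list (HSP90AA1, HSP90AB1 and CHORDC1), in 2 of 16 of the HSP70 list (HSPA6 and HSPA8), in 2 of 13 of the J-domain list (DNAJA1 and DNAJB6) and in 0 of the 28 proteasome genes. All 7 of these chaperone genes were called higher in Cfz, DNAJB6 not without DMSO 2 (adjusted p = 0.06, limma). Over all genes tested, 52 held this element in a promoter, of which 11 were called higher and 6 lower. A match is a description of letters and not a shown binding site. Of all genes called at least 2-fold higher, only 64.2% had a promoter in the table, beside 67.2% of all genes tested, and the rest could not be read. Among those with a promoter, 31 of 104 genes (29.8%) held the antioxidant response element, beside 19.2% for all genes tested. The heat shock element stood in 1 of the 104. These shares were not tested.

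All 33 subunits of the constitutive proteasome rose, 14 of 14 in the 20S core and 19 of 19 in the 19S cap. Summed over the 20S core, the genes gave 1972, 1964 and 1990 FPM in DMSO 1 to 3 and 3182 FPM in Cfz, a ratio of 1.61. The 19S cap gave 2901, 2882 and 2839 FPM in DMSO and 5371 FPM in Cfz, a ratio of 1.87. The DMSO libraries were close to each other, with a highest value at most 1.13 times the lowest in any subunit. Cfz was above every DMSO library for all 33 genes, by a factor of at least 1.23 over the highest. Of all 15827 genes tested, 4002 were above every DMSO library.

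**Figure D1:**
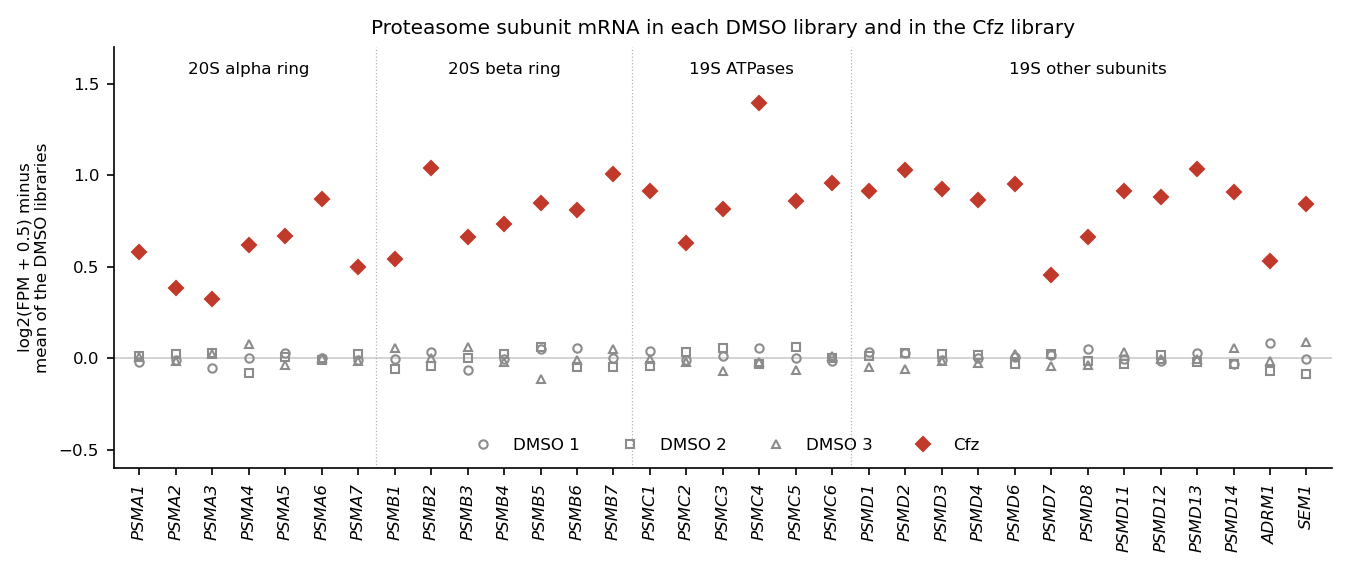
Proteasome subunit mRNA as log2(FPM + 0.5) minus the mean of the DMSO libraries (y axis) for each subunit gene (x axis). Grey symbols are DMSO 1, 2 and 3 and red diamonds the Cfz library. The red diamond is above all grey symbols for each of the 33 genes, lowest for PSMA3 (0.32) and highest for PSMC4 (1.39).

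The rise differed in size between parts of the particle. In the alpha ring, which gates the core, the 7 log2 fold changes ran from 0.32 to 0.87 with a median of 0.58, and the summed ratio was 1.47. In the beta ring, which holds the cutting sites, they ran from 0.54 to 1.04 with a median of 0.81. PSMB5, the subunit that carfilzomib binds, was at 30.5, 30.8 and 27.2 FPM in DMSO and 53.5 FPM in Cfz (log2 fold change 0.85 ± 0.09 SE, adjusted p = 5.99e-05, limma). The 4 values do not overlap between groups. The other 2 catalytic subunits rose as well. PSMB6, with the caspase-like site, went from 95.3, 88.7 and 91.0 to 161 FPM. PSMB7, with the trypsin-like site, went from 108, 104 and 112 to 218 FPM. The beta subunit with the largest change was PSMB2, a non-catalytic one, at 209, 198 and 204 FPM in DMSO and 419 FPM in Cfz (log2 fold change 1.04 ± 0.05).

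The 6 ATPases of the 19S base ran from 0.63 to 1.39 (median 0.89), and the 13 other 19S subunits from 0.45 to 1.03 (median 0.91). PSMC4 had the largest change of all subunits, at 104, 97.8 and 98.5 FPM in DMSO and 263 FPM in Cfz (log2 fold change 1.39 ± 0.05 SE, adjusted p = 7.55e-08, limma). PSMD2, a large scaffold subunit of the base, went from 462, 461 and 435 to 922 FPM. PSMD13, a lid subunit, went from 134, 130.0 and 132 to 271 FPM. PSMD14, the enzyme that cuts ubiquitin chains off the substrate, went from 166, 166 and 177 to 319 FPM. The ubiquitin receptor ADRM1 (98.7, 88.8 and 92.1 against 135 FPM) and PSMD7 (87.7, 88.2 and 84.3 against 119 FPM) had the smallest changes among the 19S genes.

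Other proteasome parts did not move as a block. Of 9 assembly factors, 1 was called higher and 2 lower. POMP, which matures the core, rose from 57.4, 60.5 and 55.4 to 97.5 FPM, while the chaperones PSMG2 (45.7, 46.4 and 52.2 against 36.8 FPM) and PSMG3 (18.3, 20.9 and 21.4 against 14.8 FPM) fell, though DESeq2 called neither (adjusted p 0.0715 and 0.147). Of 9 immunoproteasome and activator genes, 1 was called, the nuclear activator PSME4, at 198, 203 and 191 FPM in DMSO and 312 FPM in Cfz. The beta subunits that replace the catalytic ones in the immunoproteasome did not pass the test. PSMB8 was at 44.3, 41.2 and 47.0 against 38.9 FPM. PSMB9 was at 27.5, 25.4 and 28.7 against 25.0 FPM. PSMB10 was at 45.4, 39.5 and 36.3 against 38.1 FPM. Without DMSO 3 a second gene of this list was called higher.

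In the list for the release of NFE2L1 from the endoplasmic reticulum, 8 of 12 genes rose and 0 fell (9 and 3 without DMSO 3). DDI2, the protease that cuts NFE2L1, was not called, at 159, 156.5 and 136 FPM in DMSO and 132 FPM in Cfz, nor were SYVN1 and SEL1L. All 3 were below every DMSO library, as were 7344 of all 15827 genes tested. UFD1 and NPLOC4 form the adaptor that brings ubiquitinated proteins to VCP. UFD1 was at 72.4, 71.3 and 76.9 FPM in DMSO and 163 FPM in Cfz (log2 fold change 1.14 ± 0.06 SE, adjusted p = 5.45e-07, limma), and NPLOC4 at 164, 162 and 151 against 302 FPM. VCP itself was 1.58-fold higher, and its cofactors NSFL1C (71.1, 70.1 and 74.6 against 144 FPM), UBXN4 and FAF2 were higher too. NFE2L1 mRNA was at 206, 206 and 189.7 FPM in DMSO and 261 FPM in Cfz, and the deglycosylase NGLY1 at 136, 131 and 133 against 165 FPM. Each of the genes called higher was above all DMSO libraries.

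Of 20 genes for ubiquitin, shuttle proteins and proteasome-bound enzymes, 10 rose and 1 fell (2 without DMSO 3). UBB, a polyubiquitin gene, was at 264, 264 and 254 FPM in DMSO and 298 FPM in Cfz. ZFAND2A, an arsenite-inducible proteasome-binding protein, rose from 9.97, 8.94 and 8.03 to 23.9 FPM, and ZFAND5, a proteasome activator, from 191, 196 and 187 to 342 FPM. The shuttle UBQLN1 and the deubiquitinases USP14 and USP5 rose by 0.64, 0.66 and 0.68 on the log2 scale. UBQLN4, another shuttle, fell from 111, 110.4 and 99.7 to 85.1 FPM. The list of other ubiquitin-conjugating and ligating enzymes had 0 of 17 higher and 7 lower, among them SIAH1 and UBE2S, but DESeq2 called 1 lower and 1 higher, and without DMSO 3 it was 1 higher and 9 lower.

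Many chaperone genes were higher, with a few inducible ones far ahead. The HSP70 list, which includes the mitochondrial HSPA9, had a median log2 fold change of only 0.10. Of 18 genes for HSP70, HSP110 and their exchange factors 8 rose and 0 fell (8 and 1 without DMSO 3), of 13 J-domain cochaperones 7 and 0 (8 and 1), and of 13 HSP90 genes and cochaperones 9 and 1. HSPA6, a strictly stress-inducible HSP70, was at 0.291, 0.302 and 0.199 FPM in DMSO, near the count floor, and 4.53 FPM in Cfz (log2 fold change 2.72 ± 0.31 SE, adjusted p = 0.00012, limma). HSPA1A and HSPA1B, the main inducible HSP70 genes, are near-identical copies whose reads can be split between them, and their lanes differed beyond sampling noise, so their sum is the safer value. It was 94.8, 92.8 and 127 FPM in DMSO and 332 FPM in Cfz, a ratio of 3.17.

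The abundant constitutive chaperones changed less in fold but gained many fragments. HSPA8, the constitutive HSP70, was at 2831, 2821 and 2892 FPM in DMSO and 4229 FPM in Cfz. HSP90AA1 was at 1256, 1261 and 1280 against 2087 FPM and HSP90AB1 at 2171, 2200.0 and 2199 against 3366 FPM. Both groups are apart for all 3 genes. BAG3, an HSP70 exchange factor that feeds aggregates to autophagy, was at 19.99, 20.3 and 21.7 against 31.2 FPM. DNAJB1, the main HSP70 partner induced by HSF1, rose from 102, 106 and 109.6 to 134 FPM, and DNAJB2 from 30.7, 29.9 and 30.7 to 48.8 FPM. The mRNA of HSF1 itself was not called, at 72.2, 68.8 and 69.9 against 71.4 FPM.

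In the list of small heat shock proteins and other HSF1 targets, 4 of 10 rose and 1 fell, SLC5A3, a call lost without any 1 library other than DMSO 3. CLU, the secreted chaperone clusterin, had the largest change, at 135, 129.6 and 108 FPM in DMSO and 457 FPM in Cfz (log2 fold change 1.88 ± 0.09). The mitochondrial chaperonins HSPD1 and HSPE1 rose by 0.20 and 0.25 on the log2 scale. In the TRiC chaperonin, which folds actin and tubulin, 3 of 8 rose (4 without DMSO 3): CCT3, CCT5 and CCT7, by 0.17 to 0.28, with the call of CCT7 lost without DMSO 1 or DMSO 2 (adjusted p up to 0.0562, limma). The cochaperone FKBP5, a target of the glucocorticoid receptor, fell from 128, 130.3 and 137 to 96.5 FPM.

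Antioxidant enzymes known as NRF2 targets formed the list of at least 8 tested genes with the largest share called higher outside the proteasome: 15 of 20 tested genes rose and 0 fell (15 and 1 without DMSO 3), with a median log2 fold change of 0.66 against -0.08 over all genes. SRXN1, which repairs oxidised peroxiredoxins, was at 67.3, 67.7 and 60.5 FPM in DMSO and 216 FPM in Cfz (log2 fold change 1.73 ± 0.07 SE, adjusted p = 7.55e-08, limma). SLC7A11, the cystine importer, was at 12.4, 13.0 and 13.5 against 38.1 FPM. GSR, glutathione reductase, was at 141, 137 and 125 against 302 FPM. In all 3 genes Cfz was far above the highest DMSO library.

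Enzymes of the pentose phosphate path and malic enzyme, which supply NADPH, rose with them. TALDO1 went from 198, 186 and 170.1 to 404 FPM. PGD went from 159, 154 and 145 to 236 FPM. Malic enzyme ME1 went from 42.6, 41.0 and 40.1 to 80.0 FPM. The antioxidant genes whose promoter letters are shown above were both higher. TXNRD1 rose from 370, 372 and 332 to 602 FPM. GCLM rose from 38.9, 39.4 and 34.3 to 63.3 FPM. OSGIN1, a low gene at 0.759, 0.362 and 0.336 FPM in DMSO, reached 4.72 FPM. NQO1, a quinone reductase often used as an NRF2 reporter, rose by 0.69. Among the factors themselves, NFE2L2 rose from 75.9, 76.3 and 78.0 to 108 FPM. Its partner MAFG, its competitor BACH1 and its inhibitor KEAP1 rose too, by 0.57, 0.42 and 0.39 on the log2 scale. BACH2, a repressor of the plasma cell programme, fell from 27.9, 25.6 and 28.8 to 21.9 FPM, though not with the other scalings.

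HMOX1, heme oxygenase 1, which opens the heme ring, was at 22.6, 22.6 and 15 FPM in DMSO and 159 FPM in Cfz (log2 fold change 2.98 ± 0.18 SE, adjusted p = 9.36e-07, limma). BLVRB, which reduces the biliverdin made from heme, rose from 8.75, 7.91 and 8.10 to 19.9 FPM. FTL, the ferritin light chain that stores the iron released, was at 1400, 1396 and 1213 FPM in DMSO and 3433 FPM in Cfz, while the heavy chain FTH1 was not called (132, 129 and 129.6 against 141 FPM). Iron uptake and export genes were lower: TFRC, the transferrin receptor, fell from 405, 431 and 372 to 308 FPM, SLC40A1, the exporter ferroportin, from 5.36, 5.37 and 4.67 to 2.42 FPM, and SLC11A2 by 0.27 on the log2 scale, a call lost without DMSO 1 (adjusted p = 0.0644, limma) or ATRA 1 and with median-ratio scaling. In all, 3 of the 15 genes rose and 3 fell (4 and 4 without DMSO 3, 5 and 2 with edgeR or median-ratio scaling).

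Of 11 autophagy receptors and ATG8 genes tested 5 rose and 0 fell. SQSTM1, the cargo receptor p62, had the smallest adjusted p of the list: 415, 401 and 406 FPM in DMSO and 1894 FPM in Cfz (log2 fold change 2.22 ± 0.04 SE, adjusted p = 3.22e-10, limma). GABARAPL1, an ATG8 protein on autophagosomes, went from 13.2, 15.4 and 12.1 to 61.0 FPM. Both genes were far above their DMSO values. The receptors CALCOCO2 (78.4, 79.8 and 73.3 against 132 FPM) and TAX1BP1 (144, 142 and 144 against 184 FPM) and the ATG8 gene MAP1LC3B (58.7, 58.5 and 55.5 against 78.0 FPM) also rose. The receptors NBR1, OPTN, TOLLIP and WDFY3 were not called, with log2 fold changes of -0.12, 0.02, 0.20 and -0.14. Of 25 genes for autophagy initiation and conjugation, 3 rose (ATG4A, RB1CC1 and the factor TFE3) and 1 fell (ULK2). In the aggresome and microtubule list 5 of 12 rose, with TUBB2A from 2.33, 2.60 and 3.68 to 9.04 FPM and the dynein heavy chain DYNC1H1 from 140.1, 146 and 113 to 215 FPM, and 1 fell, TUBB (2 without DMSO 3).

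**Figure D2:**
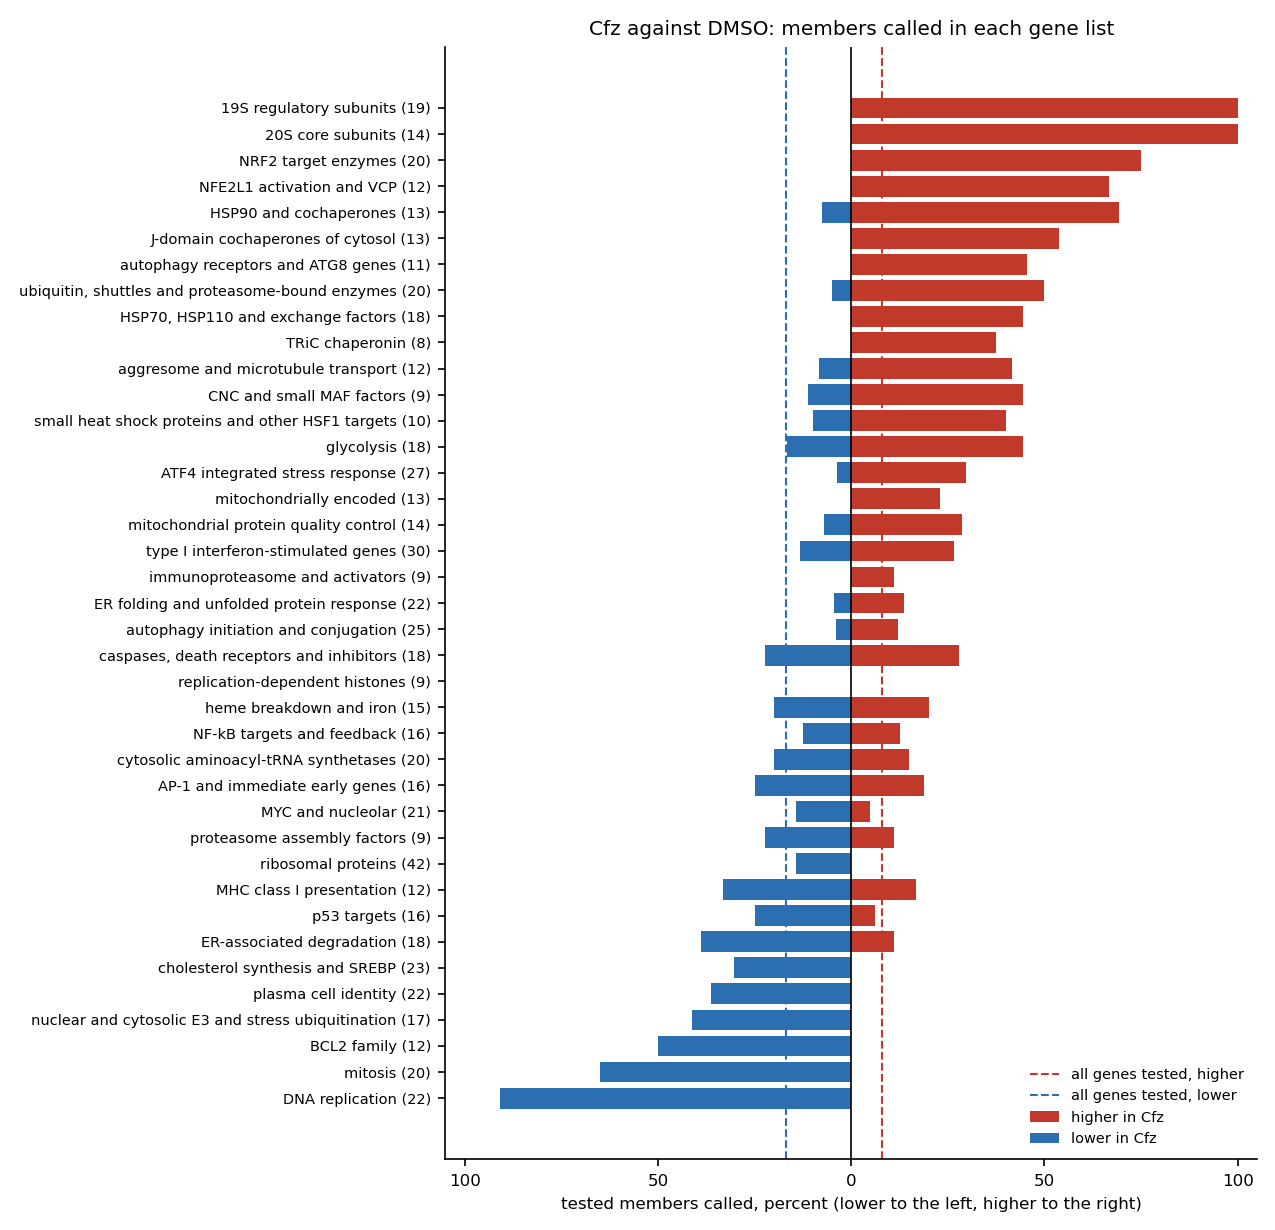
Share of tested members called higher (red, to the right) and lower (blue, to the left) in Cfz against DMSO for each gene list with at least 8 tested members, in percent, with the number tested in parentheses. Dashed lines are the shares over all genes tested (7.94% higher, 17% lower). Both proteasome lists reach 100% higher, and DNA replication has 20 of 22 lower.

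Stress responses of the endoplasmic reticulum and of translation moved little by comparison. Of 27 genes of the ATF4 integrated stress response, 8 rose and 1 fell (9 and 3 without DMSO 3, 10 and 1 with median-ratio scaling). PPP1R15A (GADD34), which ends the block of translation, was at 42.5, 40.8 and 41.4 FPM in DMSO and 84.9 FPM in Cfz (log2 fold change 1.02 ± 0.06). CTH, an enzyme of cysteine synthesis, rose from 2.92, 2.90 and 3.15 to 8.06 FPM, and ATF3 from 16.7, 19.5 and 16.2 to 29.3 FPM. ATF4 mRNA was at 214, 217 and 237 against 262 FPM. DDIT3 (CHOP), a death-linked factor of this response, was at 5.71, 5.62 and 6.29 against 8.06 FPM, just past the threshold (adjusted p = 0.0459, limma). Its call was lost when any 1 library but DMSO 3 was left out (adjusted p up to 0.0936, limma). The cytosolic tRNA synthetases split, with 3 higher and 4 lower of 20 (8 and 5 without DMSO 3, 7 and 2 with median-ratio scaling, 3 and 0 with DESeq2).

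Of 22 genes for folding in the endoplasmic reticulum, 3 rose and 1 fell, but 5 rose and 7 fell without DMSO 3, and 0 fell without any other 1 library or with the other scalings (6 rose with median-ratio scaling). HSPA5 (BiP), the central chaperone there, was at 979.8, 988 and 825 FPM in DMSO and 1208 FPM in Cfz. CALR (1346, 1359 and 1125 against 1601 FPM) and PDIA3 (548, 543 and 472 against 608 FPM) showed the same order, with DMSO 3 the lowest library in each. XBP1, the factor of the unfolded protein response and of plasma cells, fell from 890.0, 906 and 888 to 799.9 FPM, but its call was lost with edgeR, DESeq2 or median-ratio scaling and without any 1 library other than DMSO 3 (adjusted p 0.0558 to 0.0649, limma). The call of PDIA3 was lost when any 1 ATRA library was left out (up to 0.0824). In ER-associated degradation 2 of 18 rose (3 without DMSO 3, 1 without DMSO 2, ATRA 1 or ATRA 3), led by HERPUD1 (543, 547 and 478 against 692 FPM), and 7 fell (11 without DMSO 3, 3 with DESeq2), among them EDEM3 (341, 345 and 328 against 258 FPM), UBE2J1 and DERL3. The shares are 11.1% and 38.9%.

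In the BCL2 family 0 of 12 genes rose and 6 fell, where all genes tested gave 17%. Without DMSO 3 it was 1 and 7, and with DESeq2 0 and 3. Of the 6 that fell, 5 are pro-death genes, as are most of the tested members of this list. BCL2L11 (BIM), which binds and blocks survival proteins, fell from 194, 189 and 193 to 142 FPM. BAX, a pore former of the mitochondrial membrane, fell from 37.7, 33.9 and 34.0 to 24.2 FPM. The sensitisers PMAIP1 (NOXA), BBC3 (PUMA) and BMF were the others. PMAIP1 was at 8.15, 10.1 and 11.8 against 6.23 FPM, and BBC3 at 3.32, 3.50 and 3.61 against 1.97 FPM. The survival gene BCL2 fell as well, from 179, 184 and 160.2 to 137 FPM. MCL1, a survival protein on which myeloma cells are known to depend, was not called at 613, 617 and 621 against 574 FPM, nor was BCL2L1. The calls of PMAIP1 and BBC3 were lost with DESeq2, that of PMAIP1 also without DMSO 2 (adjusted p = 0.0558, limma), and that of BMF without any 1 library other than DMSO 3 (up to 0.0958).

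Among caspases, death receptors and their inhibitors some genes were higher and others lower, 5 and 4 of 18 (6 and 7 without DMSO 3). The receptor FAS rose from 25.2, 24.6 and 26.2 to 39.4 FPM, and the receptor TNFRSF10A by 0.61 on the log2 scale. The adaptor FADD rose from 16.2, 18.5 and 17.9 to 27.4 FPM. The initiator caspase CASP8, which FADD recruits, rose from 163, 163 and 174 to 221 FPM. None of these overlapped between groups, which was also so for 11346 of all 15827 genes tested. APAF1, the scaffold of the mitochondrial route, fell from 11.2, 10.7 and 10.6 to 5.77 FPM. Of 16 p53 targets 1 rose, GADD45A (29.7, 27.2 and 28.97 against 53.1 FPM), and 4 fell. Without DMSO 3 it was 2 and 6, but 2 fell without DMSO 2 or ATRA 2, with median-ratio scaling and with edgeR, and DESeq2 called 0 lower. Of 16 AP-1 and immediate early genes 3 rose, with ZFP36, which destabilises cytokine mRNA, from 72.4, 66.8 and 79.3 to 126 FPM, and 4 fell (7 without DMSO 3, 1 without DMSO 1 or DMSO 2, 2 with edgeR or median-ratio scaling, and 0 of the 3 with an adjusted p in DESeq2). Of 16 NF-kB targets 2 rose and 2 fell (3 and 4 without DMSO 3, 1 lower without any other 1 library or with edgeR, and 1 and 0 with DESeq2).

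Of 22 plasma cell genes 0 rose and 8 fell, and 14 were not called. Without DMSO 3 it was 14 lower, with median-ratio scaling 5, and with edgeR and DESeq2 6 each. CD38, a surface enzyme and antibody target in myeloma, was at 64.7, 67.5 and 79.5 FPM in DMSO and 39.0 FPM in Cfz (log2 fold change -0.84 ± 0.09 SE, adjusted p = 7.24e-05, limma). Cfz was below all DMSO libraries. SDC1 went from 444, 433 and 393 to 329.7 FPM. TNFRSF17 went from 240.1, 241 and 194 to 179.5 FPM, with DMSO 3 the nearest to Cfz in both genes. The call of TNFRSF17 was lost without any 1 library other than DMSO 3 (adjusted p up to 0.0793, limma). IKZF1, a lymphoid factor, fell by 0.28 on the log2 scale. The secretory genes MZB1 and FKBP11 fell by 0.18 and 0.40, MZB1 not with median-ratio scaling or edgeR. In bulk RNA, fewer cells of a kind and less RNA per cell cannot be told apart. The light chain gene IGLC1, which has near-identical neighbours, was higher at 8075, 7868 and 7464 against 9813 FPM.

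DNA replication genes fell almost as a block: 20 of 22 were lower and 0 higher, with a median log2 fold change of -0.41, while RRM1 and RRM2 were not called. The count was 17 with median-ratio scaling, 19 with edgeR and 13 with DESeq2, and 20 without DMSO 3, with 1 higher. UHRF1, which copies DNA methylation to new strands, was at 137, 142 and 155 FPM in DMSO and 92.3 FPM in Cfz (log2 fold change -0.64 ± 0.07 SE, adjusted p = 0.000104, limma). The helicase gene MCM4 went from 524, 525 and 544 to 385 FPM. PCNA, the sliding clamp of the polymerases, went from 318, 321 and 349.6 to 241 FPM. All 6 genes MCM2 to MCM7 fell, by 0.29 to 0.46 on the log2 scale.

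Among 20 mitosis genes 0 rose and 13 fell, but edgeR called 8 of them lower, DESeq2 6 and median-ratio scaling 7, and 8 fell without ATRA 1 or ATRA 2. CDK1, the kinase that starts mitosis, was at 189, 190.2 and 210.4 FPM in DMSO and 132 FPM in Cfz (log2 fold change -0.57 ± 0.07). TOP2A went from 584, 602 and 668 to 451 FPM, and MKI67 from 899, 887 and 961 to 776 FPM. DMSO 3 was the highest DMSO library for each of the 3 genes. The replication-dependent histones, of which 9 were tested, had 0 calls. MYC was at 338, 339 and 339.8 against 339 FPM, within the spread of DMSO, and of 21 MYC and nucleolar genes 1 rose and 3 fell (7 and 5 without DMSO 3, 2 higher without DMSO 1, 1 lower without DMSO 2). Of the genes that lost most fragments, several are chromatin or spindle genes: H3-3A, a histone variant gene, went from 971, 981 and 1020.0 to 660.4 FPM. HMGN2, a nucleosome-binding protein, went from 822, 865 and 873 to 580.5 FPM, and TUBB, a beta tubulin, from 1519, 1558 and 1658 to 1285 FPM.

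**Figure D3:**
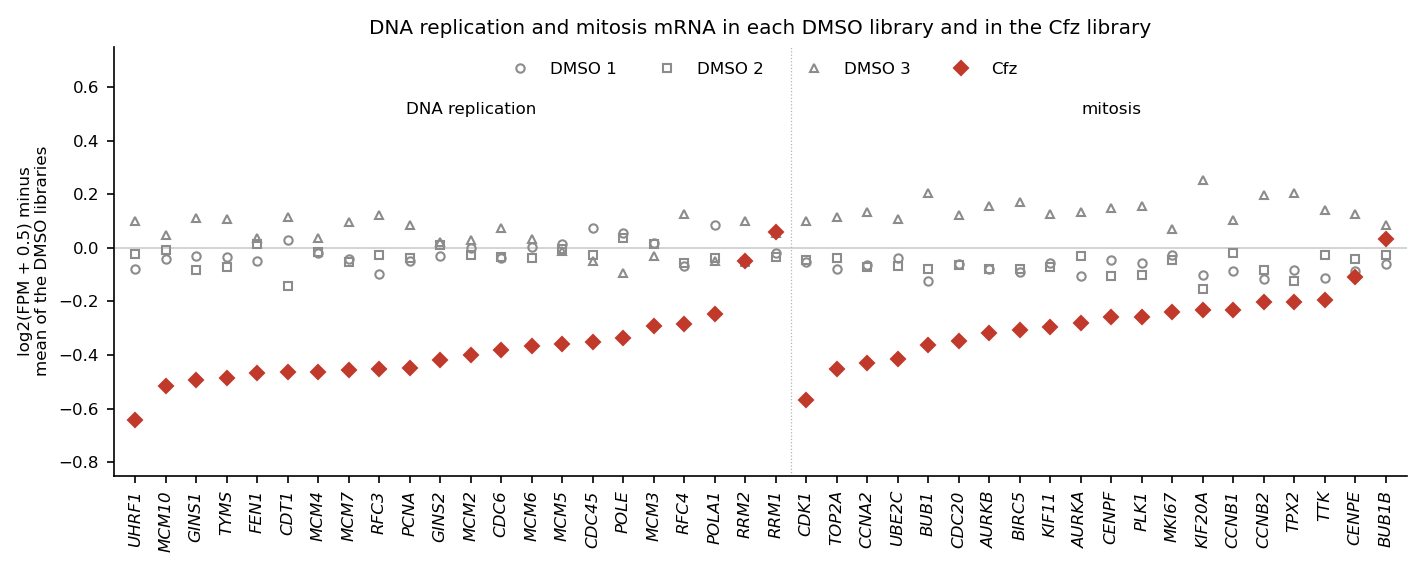
DNA replication and mitosis mRNA as log2(FPM + 0.5) minus the mean of the DMSO libraries (y axis) for each gene (x axis). Grey symbols are DMSO 1, 2 and 3 and red diamonds Cfz. The diamonds run down to -0.64 for UHRF1, and DMSO 3 (triangles) is the highest DMSO library for most mitosis genes.

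In metabolism, 8 of 18 glycolysis genes rose (5 without ATRA 2) and 3 fell (5 without DMSO 3, 1 with DESeq2). The comparison of ATRA+Cfz against ATRA differed, with 2 of the 18 called higher and 7 lower. The median log2 fold change was -0.10 there and 0.14 in Cfz against DMSO. GAPDH was at 2045, 2058 and 2096 FPM in DMSO and 3364 FPM in Cfz (log2 fold change 0.70 ± 0.05 SE, adjusted p = 3.27e-06, limma). PKM, pyruvate kinase, was at 512, 493 and 501 against 754 FPM. ALDOA, aldolase, was at 537, 519.6 and 522 against 755 FPM. The DMSO libraries of the 3 genes lay close together and well below Cfz. HK2, PDK1 and PFKL fell by 0.34, 0.28 and 0.28. In cholesterol synthesis 0 of 23 rose and 7 fell (15 without DMSO 3, 2 with DESeq2). Among them was SREBF1, a transcription factor of this list, from 23.2, 23.1 and 17.5 to 14.4 FPM. Of 42 ribosomal protein genes 0 rose and 6 fell, by 0.13 to 0.25. That split depends on the scaling, with 3 higher and 2 lower with median-ratio scaling, 2 and 3 with edgeR, 2 and 1 with DESeq2, and 8 and 10 without DMSO 3.

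Of 13 mitochondrially encoded mRNAs 3 rose, MT-ND2, MT-ND3 and MT-CO2, and 13 of 13 were called higher without DMSO 3, the control library whose mitochondrial share was closest to that of Cfz. MT-CO2 was at 4001, 4003 and 4797 FPM in DMSO and 5569 FPM in Cfz. The part of the mitochondrial share in other results was not tested. Of 14 genes for protein quality control in mitochondria 4 rose and 1 fell, with HSPA9, the mitochondrial HSP70, at 577, 573 and 582 against 832 FPM and CLPB, a disaggregase, at 61.1, 56.8 and 50.8 against 86.3 FPM.

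Interferon-stimulated genes split, 8 of 30 higher and 4 lower (2 lower with median-ratio scaling and edgeR, 1 with DESeq2, 2 without any 1 ATRA library). IFI44 was at 2.10, 1.63 and 2.60 FPM in DMSO and 15.8 FPM in Cfz (log2 fold change 2.66 ± 0.24). SAMD9L, a restrictor of virus translation, was at 262, 269 and 245 against 449 FPM. Its neighbour and paralogue SAMD9 fell from 167, 169 and 159.5 to 122 FPM. IFIH1, the sensor MDA5, rose from 88.9, 86.4 and 87.4 to 125 FPM, while OAS2, OAS3 and IRF9 fell by 0.20, 0.35 and 0.44. Their calls were lost in some fits without 1 library (adjusted p up to 0.0664, 0.0762 and 0.0591, limma), for OAS2 and OAS3 when any 1 ATRA library was left out. Of 12 genes of MHC class I presentation 2 rose, ERAP2 and HLA-C, and 4 fell (2 without any 1 library other than DMSO 3, 6 without DMSO 3, 2 with edgeR, and 1 with median-ratio scaling or DESeq2), among them the peptide transporter TAP1 from 83.9, 80.2 and 74.7 to 60.2 FPM and its activator NLRC5 from 6.41, 6.39 and 8.10 to 4.00 FPM. The call of NLRC5 was lost with median-ratio scaling and DESeq2 (adjusted p 0.0501 and 0.169).

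The 15 largest rises by fold, among called genes with at least 2 FPM in the higher group, Cfz outside the DMSO range and lanes that differed no more than sampling noise (which leaves out HSPA1A), held stress genes already described (HMOX1, HSPA6, OSGIN1, SQSTM1, GABARAPL1 and IFI44) and 9 others, most of which follow. PCYT1B, an enzyme of phosphatidylcholine synthesis, was at 1.28, 0.904 and 0.669 FPM in DMSO and 5.83 FPM in Cfz, and VWA5A at 3.67, 2.36 and 1.74 against 11.7 FPM. RBM11, a splicing regulator, was at 3.50, 3.68 and 4.88 against 16.5 FPM and FAM241B at 2.21, 1.51 and 1.74 against 8.28 FPM. The interferon-induced GTPase GBP6 (0.233, 0.485 and 0.134 against 2.69 FPM) and FCRL6 (0.699, 0.484 and 0.403 against 3.48 FPM) rose from near the floor. The antisense transcript HAGLR was at 0.407, 0.602 and 0.672 against 5.17 FPM, but without a stated strand setting its reads cannot be told from those of genes on the other strand. The pseudogene CKS1BP3 had 0 reads in the 3 DMSO libraries and 2.68 FPM in Cfz, and reads of its parent gene could be assigned to it. That Cfz lay above every DMSO library in all 15 was part of their choice.

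The falls were shallower, and most of the 15 largest were in low genes. HES6, a transcription factor of the HES family, was at 27.7, 25.6 and 26.0 FPM in DMSO and 12.0 FPM in Cfz (log2 fold change -1.11 ± 0.14 SE, adjusted p = 0.000236, limma). PER2, a circadian clock repressor and its neighbour on chromosome 2, was at 23.9, 24.1 and 26.6 against 11.7 FPM. IMPA2, an inositol monophosphatase, was at 20.2, 18.7 and 21.5 against 9.12 FPM, and PIK3AP1 (BCAP), a B cell signalling adaptor, at 13.3, 12.6 and 15.7 against 5.38 FPM. YPEL1, ACSM3, FJX1, TXNRD3, B3GAT2, NFIX and LDLRAD4 were all under 10 FPM in DMSO and fell by 1.11 to 1.43 on the log2 scale. By fragments, the largest gains were in the nuclear RNA MALAT1 (3968, 4165 and 3013 against 6119 FPM), FTL, IGLC1, SQSTM1, HSPA8, MT-CO2, GAPDH and HSP90AB1. The largest losses included the kinase PRKD3 (1808, 1835 and 1719 against 1395 FPM), SUB1 and SMC4, whose call was lost when any 1 ATRA library was left out (adjusted p up to 0.0659, limma) and with each other scaling.

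**Figure D4:**
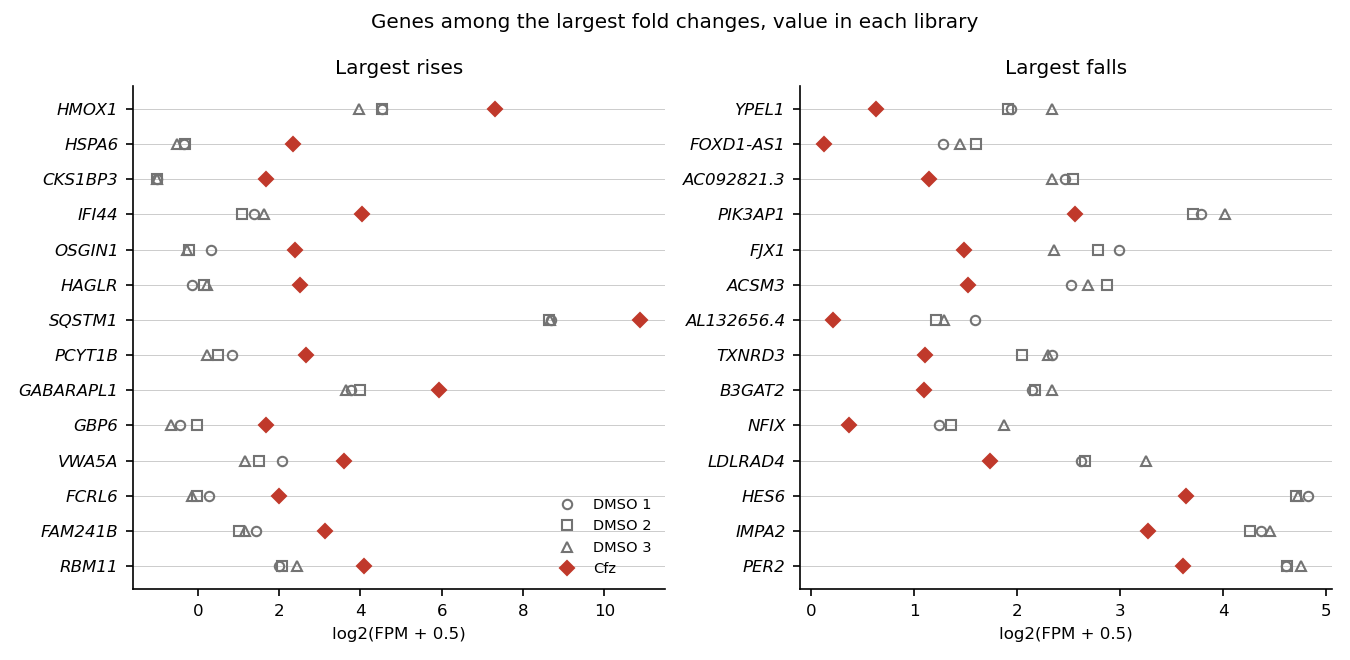
Value of genes among the largest rises (left) and falls (right) in each library, as log2(FPM + 0.5) on the x axis, with genes on the y axis ordered by fold. Grey symbols are DMSO 1, 2 and 3 and red diamonds Cfz. The diamond lies outside the DMSO range in every gene shown, which the choice of genes required, and CKS1BP3 has all DMSO libraries at 0 reads.

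A second comparison, ATRA+Cfz against the 3 ATRA libraries, has none of the DMSO and Cfz libraries in its fold changes. Its calls come from the same fit, so the 2 comparisons share an estimate of spread that includes the DMSO libraries. This second comparison called 1681 genes higher (10.6%) and 3203 lower (20.2%), or 2300 and 4092 without DMSO 3. Of the 1257 genes higher in Cfz against DMSO, 1159 were also positive there (92.2%, beside 44.7% of all genes tested) and 844 were called higher, and 11 were called lower. Of the 2691 lower genes, 2434 were negative and 1676 called lower. Among the 162 genes at least 2-fold higher, 157 were positive and 127 called. Among the 65 at least 2-fold lower, 57 were negative and 26 called. Over all 15827 genes the log2 fold changes of the 2 comparisons correlated with r = 0.571, a description across genes, which are not independent.

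With ATRA the proteasome rise was smaller for each of the 33 subunits, and 26 of them were called higher. The median was 0.27 for the 20S core instead of 0.66, and 0.51 for the 19S cap instead of 0.91. The chaperones went the other way for some members: HSP90AA1 changed by 1.2 with ATRA and 0.72 without, and DNAJB1 by 0.91 and 0.34 (adjusted p of both differences 0.0122, limma). DNA replication genes fell more, with 22 of 22 called and a median of -0.84 instead of -0.41. For HMOX1 (3.23 with ATRA, 2.98 without) and SQSTM1 (2.10 and 2.22) the difference did not pass the test. A test of the difference itself, the interaction term, called 364 genes (2.3%), among them 20 of the 33 proteasome subunits and 11 of the 22 DNA replication genes. That count was 2, 8 and 16 without ATRA 1, 2 and 3, 240 and 169 without DMSO 1 and DMSO 2, and 1986 without DMSO 3.

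**Figure D5:**
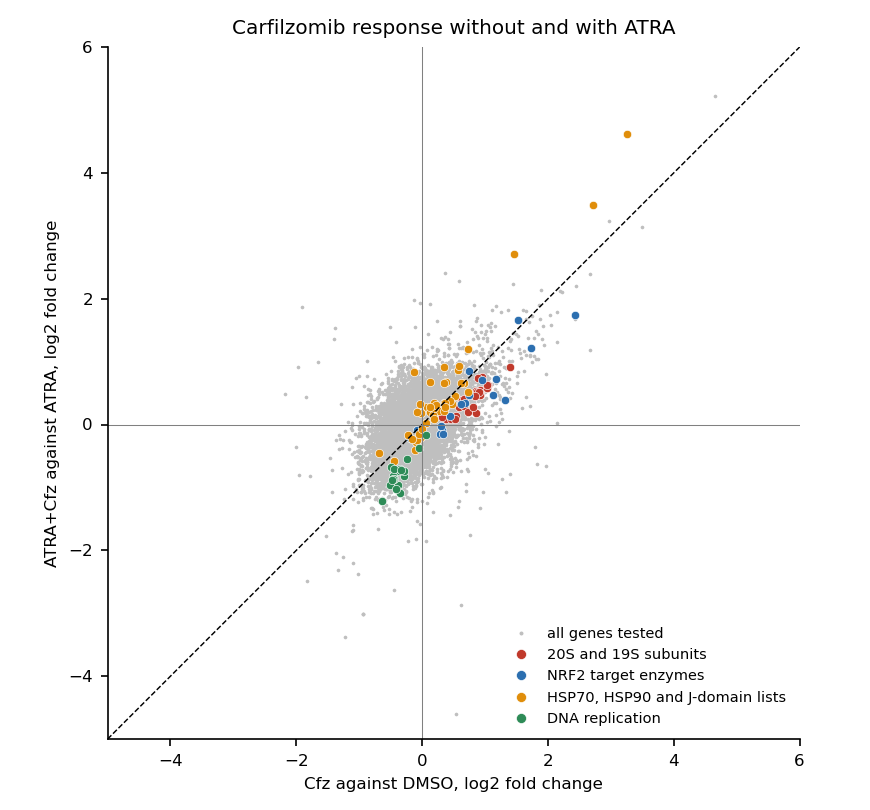
Log2 fold change of Cfz against DMSO (x axis) and of ATRA+Cfz against ATRA (y axis), each point a gene, with gene lists in colour and the line of equal change dashed. Proteasome subunits (red) lie below the line, and DNA replication genes (green) fall further with ATRA.

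Of 30 listed markers of T and NK, myeloid, stromal, epithelial and B cells, 17 were in the table and 7 could be tested, of which 2 rose and 1 fell. EPCAM, an epithelial adhesion gene, was at 0.292, 0.786 and 0.805 FPM in DMSO and 3.34 FPM in Cfz, and PDGFRB, a stromal receptor, at 0.987, 0.723 and 0.400 against 2.29 FPM. DESeq2 gave no adjusted p for either. The collagen gene COL6A3, also listed as stromal, was higher in level at 16.4, 11.8 and 23.5 FPM in DMSO and 21.8 FPM in Cfz, and was not called, except without DMSO 3 (adjusted p = 0.0372, limma). The class II regulator CIITA, listed for B cells, fell from 47.1, 45.8 and 40.6 to 31.7 FPM. The summed level of the epithelial list was 0.874 to 1.61 FPM in DMSO and 3.67 FPM in Cfz, and that of the stromal list 13.0 to 24.1 FPM and 24.4 FPM. The type I collagen, keratin and E-cadherin genes given above stayed near 0, and the part of such markers in other results was not tested.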

How the data were processed

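RNA of MM.1S cells was sequenced in 8 libraries on 4 lanes each. The submitters' processing notes name fastp 0.20.0, DESeq2 and kallisto 0.46.2, whose roles they do not state. No source used here names the genome build, annotation or strand setting. The authors deposited FPM per lane, a CPM unit: each column sums to 1000000, and whole reads could be recovered for 100% of values within 0.01 read. Each gene ID was used once, and lanes were averaged per library, since lanes of a library differed little more than sampling noise (chi-square per degree of freedom 1.21 to 1.26 over libraries). Lanes differed more for 373 of the genes tested, of which HSPA1A, HSPA1B and TAP2 are named.

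Symbols came from the table, GENCODE release 29 and a gene name table. In R 4.3.3, limma 3.58.1 (trend option) was run on log2(FPM + 0.5) in 1 fit of all 8 libraries (4 residual and 7.21 prior degrees of freedom), for genes whose mean of group means was at least 0.5 FPM, with Benjamini-Hochberg adjustment. Fold changes on this scale understate the change of low genes. The Cfz library was assumed to vary like the DMSO and ATRA libraries. edgeR 4.0.16 and DESeq2 1.42.0 ran on recovered reads as alternatives. Scripts were tested on simulated data. The comparison, gene lists and rules were chosen with earlier results of these data known. Genes named were the 15 largest rises and falls by fold (called, at least 2 FPM, Cfz outside the DMSO range, lanes within sampling noise), the 8 largest gains and losses in FPM, the 4 members of smallest p in each list and 12 genes by role. The other members named, such as PSMA3, PSMB6, PSMD7 and the immunoproteasome subunits, were chosen after their values were seen. Counts also cover genes under this rule that are not reported here.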

Additional observations from a re-analysis of the deposited data

Results flagged for a closer look

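The carfilzomib effect with ATRA minus that without ATRA passed the interaction test (limma, Benjamini-Hochberg adjusted p under 0.05) for 32 of the 204 genes that the naming rule covers, where 2.3% of all genes passed. The values below are these differences on the log2 scale. Leaving out 1 library changed the number of genes called over all genes to between 2 and 1986. The effects with and without ATRA were measured with 1 carfilzomib library each.

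Proteasome and related genes rose less with ATRA: PSMA6 -0.40, PSMB2 -0.41, PSMB4 -0.53, PSMB5 -0.66, PSMB7 -0.43, PSMC4 -0.48, PSMD2 -0.45, PSMD3 -0.45, PSMD13 -0.40 and NSFL1C -0.48. So did the antioxidant, heme and autophagy genes GSR -0.44, SRXN1 -0.51, TALDO1 -0.67, BLVRB -0.75 and GABARAPL1 -0.82, and the glycolysis genes GAPDH -0.44 and PKM -0.40. The glycolysis gene ALDOA -0.53 did not rise with ATRA (log2 fold change -0.01, beside 0.52 without). The light chain gene IGLC1 differed by -0.45. Chaperones rose more with ATRA: HSP90AA1 0.48, DNAJB1 0.57 and HSPA1B 1.25, the last with uncertain reads. Genes of DNA replication fell more, with MCM2 -0.61, MCM4 -0.49, FEN1 -0.39 and UHRF1 -0.58, as did HES6 -1.10 and DERL3 -0.50. CD38 0.64 fell less with ATRA. STARD4 0.55, UBE2D1 0.57 and MCL1 0.29 did not fall with ATRA. Their log2 fold changes were 0.02, 0.21 and 0.18 with ATRA, beside -0.53, -0.36 and -0.10 without, where MCL1 was not called.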

How the results depend on the processing

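No paired analysis was possible because the Cfz group is 1 library whose label carries no number. Of 185 called genes under the naming rule, 139 lost neither call nor direction under any alternative run that gave them an adjusted p, and without DMSO 3 none of them lost its call. Against DMSO, calls ran from 1095 to 1685 higher and 2226 to 3763 lower when 1 DMSO library was left out, and from 1111 to 1137 and 2272 to 2337 when 1 ATRA library was left out. With only the DMSO and Cfz libraries they were 834 and 1611, and with DESeq2, which gave no adjusted p for 4296 of the genes tested, 944 were lower. For ATRA+Cfz against ATRA, DESeq2 called 1735 lower. Genes that differed between the 2 comparisons numbered 169 to 1986 without 1 DMSO library and 2 to 16 without 1 ATRA library, and the cause was not tested. MYC and MTF1, not called, changed sign: MYC to 0.059 (median-ratio scaling and DESeq2), 0.039 (edgeR) and -0.003 to 0.001 (without 1 DMSO library), and MTF1 to 0.029 (median-ratio scaling and DESeq2), 0.009 (edgeR) and -0.065 to 0.008 (without 1 DMSO library). Pseudocounts of 0.1 and 1 FPM changed no named call. One library gives no spread of its own, and genes near the floor of 3 reads have imprecise folds.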
